A study of Bos taurus with 12 samples.

Results

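Single-exon circRNAs are circular RNAs whose back-splice joins the end of an exon to the start of the same exon. They were taken here as the deposited circRNA entries that are typed as exonic and carry an exon count of 1, and entries on the same chromosome and strand whose starts and ends lay within 5 bp were summed. This gave 645 junctions from 683 entries, out of 13246 junctions from 14070 entries in the whole table. The entries with an exon count of 1 held 11041 back-spliced reads, and the 2247 entries just outside the rule, with an exon count of 2, held 12911.

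The cells were preadipocytes isolated from a back muscle, the longissimus dorsi, of Qinchuan calves at birth. They were grown in medium with fetal bovine serum, penicillin and streptomycin, and adipogenic differentiation was induced with dexamethasone, IBMX (a phosphodiesterase inhibitor) and insulin, followed by insulin without the other agents (labels and methods name these agents but differ on the doses of dexamethasone and insulin, which are left out). RNA was sequenced at 0, 3, 6 and 9 d, with 3 libraries a day, so that the 0 d libraries are the uninduced reference of each of the 3 comparisons, and these comparisons share them. The methods call the replicates biological, but the labels do not say whether they were separate cultures or animals. P-values therefore concern these libraries alone, and the differences between them may be technical.

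In back-splicing, a downstream splice donor is joined to an upstream splice acceptor, and the closed circle that results has no free end for exonucleases to attack. A circle made of a single exon needs the donor and acceptor of that exon alone, and the exon is usually longer than the average internal exon and flanked by long introns. Binding of RNA-binding proteins such as QKI, or pairing of inverted repeats, can bring the flanking introns together, and ADAR and DHX9 act against such pairing. Circles from HIPK3, HIPK2, FOXO3, SLC8A1 and NFIX are well-known examples in human and mouse cells.

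Depth was low for circRNAs. The back-spliced reads over the whole circRNA table ranged from 6564 to 8113 per library at 0 d, from 7163 to 8583 at 3 d, from 5358 to 7954 at 6 d and from 9686 to 10729 at 9 d. Levels are given as counts of back-spliced reads or as SRPBM, the back-spliced reads that the authors scaled to mapped reads, and host mRNAs as FPKM. Single-exon junctions made up 4.87% of all junctions and 11.5% of all back-spliced reads, against 67606 reads (70.7%) for 11040 multi-exon junctions. The median single-exon junction had 2 reads over the 12 libraries, 190 (29.5%) had a single read, and 180 (27.9%) had at least 5. Of the multi-exon junctions, 43.4% had a single read.

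The marker mRNAs were checked before the circRNAs. Of 8 adipocyte markers 6 were in the mRNA table, and their summed level was 10.4 ± 0.460, 103 ± 5.31, 38.6 ± 0.827 and 37.0 ± 4.65 FPKM on days 0, 3, 6 and 9 (SD, n = 3). FABP4, a fatty acid carrier and the most abundant of them, went from 3.30 to 91.1, 26.4 and 9.07 FPKM, and the adipokine LEP from 2.34 to 0.07, 8.02 and 20.5. CEBPA stayed at or below 0.22 FPKM in the daily means, and PPARG and PLIN1 were not analysed here. The 6 fibroblast and preadipocyte markers summed to 119589, 171254, 131314 and 219532 FPKM on the 4 days, most of it COL3A1. The skeletal muscle markers, 7 of 8 in the table, summed to 876 ± 57.9 FPKM at 0 d, with DES highest, and to 286 ± 15.3, 399 ± 21.3 and 314 ± 18.8 later. In daily means, endothelial markers summed to between 1.76 and 2.44 FPKM, led by VWF, and blood and immune markers to at most 3.56, led by CD14. PTPRC and HBB were at 0 in every library. In limma with Benjamini-Hochberg adjustment, 6, 5 and 6 of the 7 muscle markers were lower than at 0 d at 3, 6 and 9 d, where 15.2%, 7.97% and 7.47% of all mRNAs were lower and 8.06%, 3.39% and 3.41% higher. Of the 6 adipocyte markers 3, 4 and 4 were higher on these days and 1, 0 and 0 lower, and of the 6 fibroblast and preadipocyte markers 3, 2 and 1 were higher and 2, 1 and 0 lower. Of 3 blood and immune markers tested 2, 0 and 1 were higher, CD14 at 3 and 9 d and CSF1R at 3 d. Calls of markers of low level depended on the pseudocount. With 1 in place of 0.1, ADIPOQ was not called on any day, CIDEC not at 6 and 9 d, CD14 not at 9 d and CSF1R not at 3 d, which leaves 2 adipocyte markers higher on each day, and with 0.01 LEP was not called at 6 d while CEBPA was called higher at 3 d. The ADIPOQ call at 6 d (limma log2 2.22, Benjamini-Hochberg adjusted p = 0.0258) was also lost without 0 d replicate 1 (adjusted p = 0.0706), 0 d replicate 2 (0.0576), 0 d replicate 3 (0.0565) or 6 d replicate 1 (0.0605) and with no filter on low values (0.0757). Its 9 d call (limma log2 2.34, adjusted p = 0.0196) was lost without 0 d replicate 1 (0.0563), 9 d replicate 1 (0.0683) or 9 d replicate 2 (0.0705) and with no such filter (0.0602), and the CSF1R call without 0 d replicate 3 (log2 0.9998).

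The part of muscle markers in the results that follow was not tested, and in bulk RNA fewer cells of a type and less RNA per cell cannot be told apart.

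The label exonic was checked against the introns that the circRNA table lists around each junction. Both ends lay within 5 bp of a listed intron edge for 476 of the 645 junctions, and for 472 of these both ends lay exactly at it. A further 23 junctions had 1 end at an intron edge and 146 had neither, so that 169 junctions with 3778 reads do not have the ends of a whole listed exon. For 128 of the 146 the table lists 1 flanking intron. This split was made after the data had been seen, and it is a description without a test.

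Length and host level are given by class. Junctions with both ends at exon edges spanned 117 to 5601 nt with a median of 414 nt, those with 1 end had a median of 197 nt, and those with neither end had a median of 186.5 nt and a maximum of 385 nt. The median host mRNA level was 25.1 FPKM for both ends, 109 FPKM for 1 end and 141 FPKM for neither end. The median junction of each class was in 1 library. A single read was the whole evidence for 188 of the 476 junctions with both ends, but for 1 of the 146 with neither. Multi-exon junctions showed the same contrast, with a single read for 44.6% of those with both ends and 3.90% of the others. The cause of this contrast was not tested. Of the 20 single-exon junctions present in all 12 libraries, each had both ends at exon edges, while no junction with 1 or neither end was present in more than 8 libraries. Among junctions with both ends, 206 (43.3%) had a length divisible by 3, and the median flanking introns were 7596.5 bp on the shorter side and 25766 bp on the longer. The corresponding medians around 10707 multi-exon junctions with both ends at exon edges were 3523 and 10388 bp, and their hosts had a median of 16.1 FPKM.

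**Figure D1:**
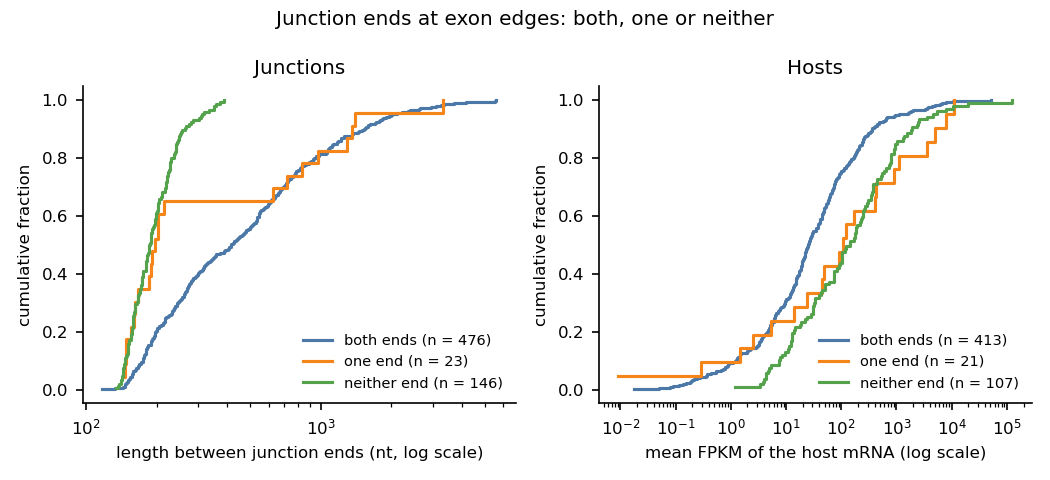
Cumulative fraction of single-exon junctions by length between their ends in nt (left, log axis) and of their hosts by mean mRNA level in FPKM over 12 libraries (right, log axis), for junctions with both, 1 or neither end at a listed exon edge. Junctions with neither end reach no further than 385 nt, and their hosts lie to the right, with a median of 141 against 25.1 FPKM.

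Strand was compared with that of the host. The strand of a host was taken from its multi-exon junctions with both ends at exon edges, and none of the 3767 hosts so placed had junctions on both strands. All 336 single-exon junctions with both ends and a host of known strand lay on the strand of the host. The methods do not state whether strands came from reads or from gene annotation, so that this count is no independent check. With neither end at an edge, 22 of 53 lay on the strand of the host and 31 on the opposite strand, with 63 and 150 reads. For the class with 1 end, 11 of 12 lay on the strand of the host. Which step of library preparation or mapping gives opposite-strand junctions was not tested.

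Summing changed little. It joined 76 entries into 38 junctions, and of the 217 library values with reads in these junctions 2 had reads in more than 1 of the joined entries. Within 5 bp of an entry of another type lay 2 single-exon junctions.

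Reads were concentrated in a few junctions. The junction with the most reads, in TIMP1, held 26.8% of all single-exon reads, the 2 with the most 42.6%, the 10 with the most 65.5%, and the 20 with the most 72.8% (8035 reads). The multi-exon junction with the most reads held 2.04% of multi-exon reads (1377 reads). The 645 junctions came from 567 host genes, of which 513 had a single one and 54 had several. Multi-exon junctions were also present in 366 of the hosts and absent from the table in 201. Both TNC and AHNAK had 6 single-exon junctions, and SPARC had 5.

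Starts, ends and strands of the leading junctions are given here as the file has them, and the methods of the study place them on ARS-UCD1.2. Chromosome names were added here, from the RefSeq chromosome of most host genes on the same sequence. The submitters' notes name a mouse assembly instead, so that the bovine build rests on the methods. Labels and methods also differ on poly(A) selection or rRNA depletion, which bears on what the circRNA levels mean. BNC2, a zinc finger transcription factor, had a junction on chromosome 8 from 27926054 to 27928023 on the plus strand (1970 nt, 1744 reads). PCNX1, a membrane protein gene, had one on chromosome 10 from 82583563 to 82585269 (plus strand, 1707 nt, 615 reads). GLIS3, another zinc finger transcription factor, had one on chromosome 8 from 40368241 to 40369366 (plus strand, 1126 nt, 538 reads). In each of these both ends lay at exon edges.

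TIMP1, whose protein inhibits matrix metalloproteinases, differed from these. Its junction on the X chromosome, from 85943286 to 85943488 on the plus strand, spans 203 nt and has 2962 reads, with its start at the edge of the single intron listed and its end at no listed edge. Whether this junction is a circle of a whole exon therefore cannot be read from the table. The junction accounted for 99.7% of the exonic circRNA reads of TIMP1.

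For many hosts the single-exon junction was the main circRNA. It held 100% of the exonic circRNA reads of ANKS3 (ankyrin repeats, 277 reads) and of TPST1 (a tyrosylprotein sulfotransferase, 247 reads), 98.7% of those of the insulin receptor gene INSR (230 reads) and 98.2% of those of BNC2. The share was 92.6% for the kinase gene HIPK3 (264 reads) and 84.1% for PCNX1. Lower shares were found for SHOC2, a scaffold of Ras signalling (62.2% of its exonic circRNA reads), GLIS3 (61.3%), LAMA2, a laminin chain (56.0%), the transcription factor NFIX (50.3%) and the myosin MYO9A (25.2%).

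Reads and host levels are set side by side for a few hosts, and no relation between them was tested. ANKS3 had 277 single-exon reads with a mean host level of 1.76 FPKM, whereas COL3A1, the collagen gene with 124895 FPKM and the highest host level, had 12 reads in the larger of its 4 junctions. LRP1, an endocytic receptor at 50917 FPKM, had 3 reads, and COL1A2 at 10916 FPKM had 4.

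**Figure D2:**
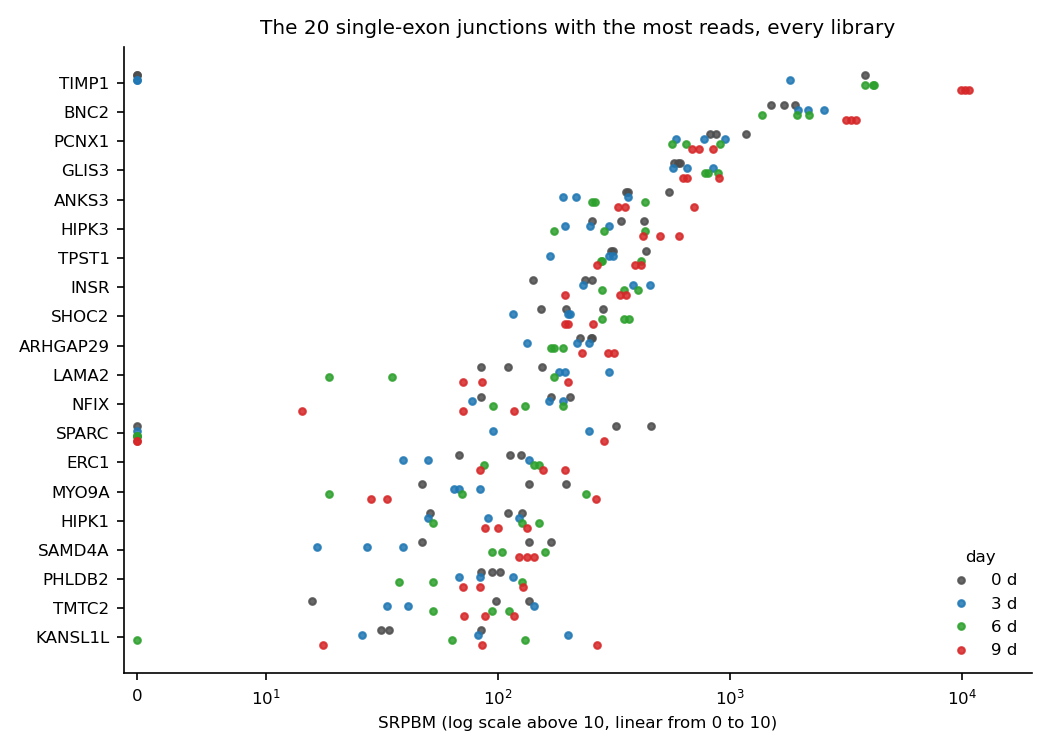
SRPBM of the 20 single-exon junctions with the most reads (log axis above 10, linear below), with a point for each of the 12 libraries coloured by day. TIMP1 and SPARC have libraries at 0 beside libraries far above it, while BNC2, PCNX1 and GLIS3 keep each day's points close together.

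Detection was compared between days, as the number of different single-exon junctions found in a library. At equal depth this number is relative to all back-spliced reads and is not a count of circles present. It also depends on abundant junctions such as TIMP1, which held 7.65%, 7.49% and 8.46% of exonic back-spliced reads in the 9 d libraries. The libraries held 128, 128 and 150 single-exon junctions at 0 d, 106, 131 and 117 on day 3, 128, 113 and 158 on day 6 and 129, 157 and 157 at 9 d. In these raw numbers each day's range overlapped that of 0 d. Reduced to the 5358 reads of the shallowest library, the expected number was 120.2 ± 6.63, 98.3 ± 7.70, 122 ± 11.1 and 113 ± 10.6 on days 0, 3, 6 and 9 (SD, n = 3; exact permutation test over the 15400 partitions of the libraries into days, one-sided for a spread between days, p = 0.0527). Without 3 d replicate 2, 6 d replicate 2, 9 d replicate 1 or 9 d replicate 2 this p fell below the threshold of 0.05, and over the 12 fits that leave out a library it ranged from 0.0384 to 0.166. With 5000 reads per library it was 0.0481, and with both ends at exon edges alone 0.0336. At equal depth all 3 d libraries (92.9, 107 and 95.0) lay below all 0 d libraries (115, 119 and 127), while those of 6 and 9 d overlapped with 0 d. With both ends at exon edges alone 3 d overlapped too, with 93.2 in 3 d replicate 2 against 91.4 in 0 d replicate 1.

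Most junctions, single-exon or multi-exon, were detected on 1 day only. This held for 421 of the 645 single-exon junctions (65.3%), 65.6% of the multi-exon junctions and 67.5% of all 13246. On all 4 days 79 single-exon junctions (12.2%) were detected, against 9.50% of multi-exon and 9.10% of all junctions, and 399 single-exon junctions were in a single library. At 0 d 276 junctions were detected, 114 of them on no other day, and the corresponding numbers were 241 and 91 for 3 d, 273 and 109 for 6 d, and 287 and 107 for 9 d. At this depth an absent junction cannot be told from a rare one, since a count of 0 over a day allows up to 3 reads, a limit that like the intervals given here covers counting error only.

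The share of exonic back-spliced reads that came from single-exon junctions was lowest at 3 d and highest at 9 d. It was 11.2%, 15.3% and 11.8% in the libraries at 0 d, 9.80%, 10.1% and 9.41% on day 3, 15.0%, 16.1% and 15.8% on day 6 and 17.2%, 17.4% and 18.2% at 9 d. All 3 d libraries lay below and all 9 d libraries above the 0 d libraries, while 0 d replicate 2 lay within the range of 6 d. The means were 12.8% ± 2.25, 9.75% ± 0.325, 15.6% ± 0.537 and 17.6% ± 0.527 (SD, n = 3; one-sided exact permutation test, p = 0.00013), and the widest 95% Wilson interval of a library extended 1.09 percentage points to a side. A permutation of 3 libraries against 3 cannot go below a two-sided p of 0.1, and no day was tested alone for this share.

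TIMP1 set the direction between 0 and 9 d. The single-exon share was 4.85 percentage points higher at 9 d than at 0 d with its junction and decreased by 0.967 points without it, when the daily means were 11.5%, 9.22%, 11.6% and 10.6% (one-sided exact permutation test, p = 0.0011). Without the 10 junctions with the most reads it also decreased, by 1.19 points (means 6.32%, 4.15%, 6.05% and 5.13%). With junctions of both ends at exon edges alone, an alternative chosen after the data had been seen, it decreased by 0.625 points (10.3%, 8.52%, 10.7% and 9.64%, p = 0.00325 in the same one-sided exact permutation test). In each of these settings 3 d kept the lowest mean.

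**Figure D3:**
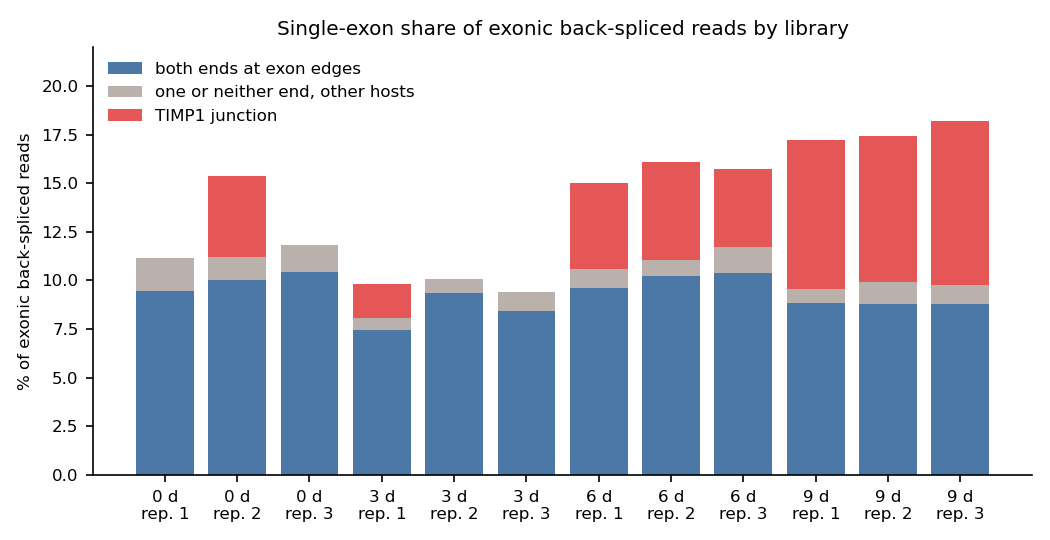
Percentage of exonic back-spliced reads from single-exon junctions in each of the 12 libraries (stacked bars from 0), divided into junctions with both ends at exon edges, other junctions with 1 or neither end, and the TIMP1 junction. The bars rise from 9.41 to 10.1% at 3 d to 17.2 to 18.2% at 9 d, and the TIMP1 segment is absent from 0 d replicates 1 and 3 and from 3 d replicates 2 and 3.

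Summed over all single-exon junctions, the level was 11672 ± 2077, 9627 ± 687, 14187 ± 1987 and 23069 ± 865 SRPBM on days 0, 3, 6 and 9 (SD, n = 3; one-sided exact permutation test, p = 0.000844). The difference of 11398 SRPBM between 9 and 0 d was 2371 without the TIMP1 junction (p = 0.0195 in the one-sided exact permutation test), with means of 10404, 9022, 10142 and 12775. The back-spliced reads of all types together were also highest in the 9 d libraries, as the totals above show.

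Single junctions were then compared with 0 d by edgeR's quasi-likelihood test on all 2767 junctions with at least 5 reads, with Benjamini-Hochberg adjustment and calls at an absolute log2 fold change over 1 and an adjusted p under 0.05. Of the 180 single-exon junctions tested, 1, 2 and 2 were called on days 3, 6 and 9, where 0.651%, 0.506% and 0.398% of all junctions tested were called. At an unadjusted p under 0.05, 14, 12 and 16 single-exon junctions passed, and 193, 130 and 167 of all 2767 junctions. DESeq2 called 0 of them and 0 of all 2767 in each comparison, with 2, 1 and 3 of them and 33, 18 and 13 of all junctions at an unadjusted p under 0.05. The biological coefficient of variation of the edgeR fit was 0.812. The median log2 fold change of the 180 was −0.41, 0 and −0.10 on the 3 days, and 0 on each once days without a read were set to the floor of 3 counts, as was the median of all 2767.

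The TIMP1 junction had 0, 3802 and 0 SRPBM in the libraries at 0 d and 1816, 0 and 0 at 3 d. It had 4183, 3813 and 4137 SRPBM at 6 d and 9903, 10308 and 10671 at 9 d. All 9 d libraries lay above all others, whereas 2 of 3 libraries had no read of it at 0 d and at 3 d, so that the days 0 and 3 overlap. By edgeR with Benjamini-Hochberg adjustment the log2 fold change at 9 d was 2.75 (adjusted p = 4.31e-13), higher in 3 of 3 libraries, and the call was kept in all 12 fits that leave out a library, with adjusted p up to 1.21e-05. It was lost when the filter was raised to at least 20 counts per junction, where edgeR called 0 of all 745 junctions tested at 9 d. DESeq2 gave no p for this junction in any comparison. The edgeR p of this junction does not measure the spread between its libraries. At 3 d it was called with 109, 0 and 0 reads against 0, 224 and 0 at 0 d.

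The TIMP1 calls at 6 d and 3 d changed with the libraries and settings used. At 6 d the log2 fold change was 1.73 (edgeR adjusted p = 3.77e-05), with counts of 223, 219 and 260 against 0, 224 and 0. The call was lost without 0 d replicate 1 (log2 1.16, adjusted p = 0.353) or without 0 d replicate 3 (log2 1.19, adjusted p = 0.101), while without 0 d replicate 2, the 0 d library with reads, the junction was at least 182-fold higher relative to the floor; over the 12 such fits the edgeR adjusted p ranged from 5.62e-56 to 0.353. At 3 d it was −1.29 (edgeR adjusted p = 0.0139) with the libraries of both days overlapping. It was lost without 3 d replicate 2 (log2 −0.71, adjusted p = 0.711) or 3 d replicate 3 (log2 −0.71, adjusted p = 0.601), and without 0 d replicate 2 it turned to at least 23.0-fold higher (adjusted p = 4.41e-21; range 5.58e-54 to 0.711 over the 12 fits by edgeR). Without 3 d replicate 1, the single 3 d library with reads, it was at least 57.9-fold lower, and without 0 d replicate 2 the 9 d level was at least 325-fold higher. The bounds of 182-, 23.0-, 57.9- and 325-fold are relative to the floor of 3 counts and cover counting error only. Each leaves out the library of its day with reads, so that none is a lower limit on the change. With all libraries the means were 1267 SRPBM at 0 d and 10294 at 9 d. The 3 d call was also lost with the replicate block, with library sizes from the reads behind SRPBM, with only the 6 libraries compared, with no filter on low counts and with at least 20 counts, and the 6 d call with either of these filters.

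The mRNA of TIMP1 had no such zeros. It was at 724, 761 and 772 FPKM at 0 d, 544, 660 and 641 on day 3, 953, 868.5 and 915 on day 6 and 2192, 1969 and 2100 at 9 d. The 9 d libraries stood above all others, and 3 d lay below and 6 d above 0 d in every library. In limma with Benjamini-Hochberg adjustment the log2 fold change was 1.47 ± 0.0757 (SE) at 9 d (adjusted p = 4.61e-07), which was called, and −0.30 and 0.28 at 3 and 6 d, which did not pass the fold change threshold. The mRNA call held in all 18 alternative fits.

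SPARC encodes a collagen-binding matrix protein, and its called junction, on chromosome 7 from 62874886 to 62875122 on the minus strand (237 nt), has neither end at an exon edge. It had 456, 322.5 and 0 SRPBM at 0 d, 0, 95.6 and 246 at 3 d, 0 in each library at 6 d and 0, 0 and 285 at 9 d. The libraries without a read at 0, 3 and 9 d overlap with those of 6 d. The 48 reads at 0 d against 0 at 6 d make it at least 14.4-fold lower at 6 d relative to a floor of 3 counts over the group, scaled to all back-spliced reads as in the edgeR fit, and at least 14.3-fold scaled to the reads behind SRPBM (edgeR with Benjamini-Hochberg adjustment, adjusted p = 4.38e-06, with every 6 d library below 2 of the 3 libraries of 0 d), and the adjusted p stayed at or below 0.00176 in all 12 fits that leave out a library. With at least 20 counts per junction the call was lost. Scaled to back-spliced reads, the bound was 8.48-fold without 0 d replicate 1, 8.58-fold without 6 d replicate 3 and 22.9-fold without 0 d replicate 3. In DESeq2 its p was 0.0818 and its adjusted p 1. Without 9 d replicate 3 the junction was also called at 9 d. The mRNA of SPARC was at 5925 ± 244, 4966 ± 94.6, 5571 ± 51.2 and 5602 ± 13.6 FPKM on the 4 days (SD, n = 3), and was not called on any.

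IGF1R encodes the receptor of insulin-like growth factors, and its junction lies on chromosome 21 from 7833095 to 7833640 on the plus strand (546 nt, both ends at exon edges). Its SRPBM was 267, 141 and 271 at 9 d, 95.6 in 3 d replicate 2 and 0 in the remaining 8 libraries. The 9 d libraries lay above every other library. Relative to the floor of 3 counts over the group, its 43 reads make it at least 10.4-fold higher at 9 d scaled to all back-spliced reads, as in the edgeR fit, and at least 14.9-fold scaled to the reads behind SRPBM (edgeR with Benjamini-Hochberg adjustment, adjusted p = 0.000474, higher in 3 of 3 libraries; up to 0.0203 when leaving out a library). With at least 20 counts per junction the call was lost. Without 0 d replicate 3 the bound on the scale of the fit was 6.52-fold. DESeq2 gave a p of 0.0628 and an adjusted p of 1. The mRNA was at 55.5 ± 1.34, 32.2 ± 1.61, 52.2 ± 5.18 and 52.8 ± 2.93 FPKM (SD, n = 3), lowest at 3 d and not called. Of the called junctions this is the only one with both ends at exon edges, and with junctions of that class alone 0, 0 and 1 were called at 3, 6 and 9 d.

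**Figure D4:**
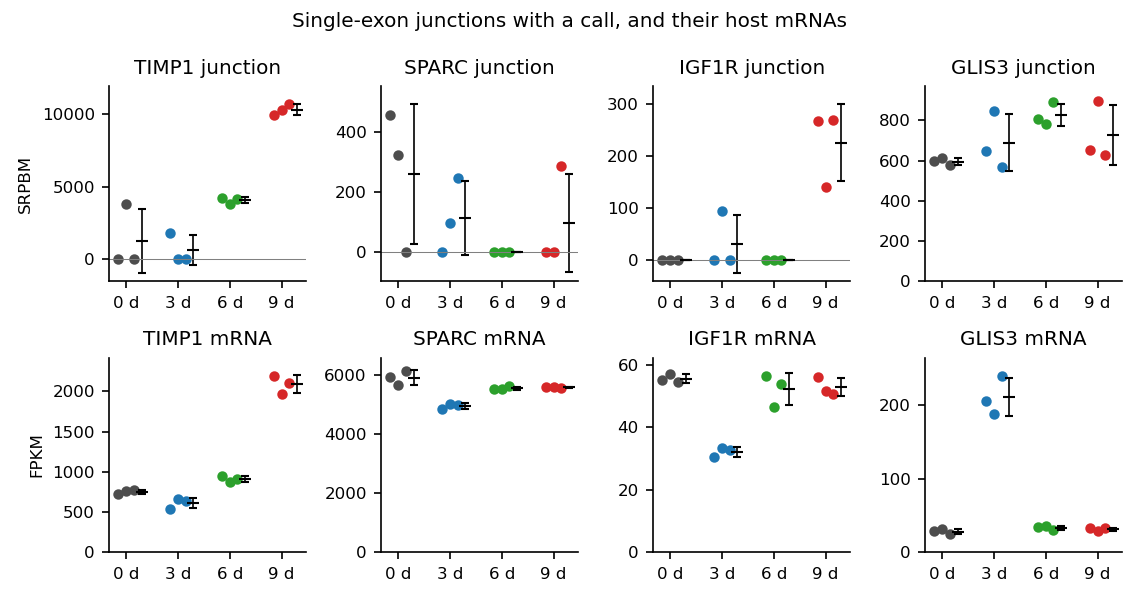
SRPBM of the junctions of TIMP1, SPARC, IGF1R and GLIS3 (top) and FPKM of their host mRNAs (bottom) by day, with a point for each library and bars for the mean ± SD (n = 3). The TIMP1 junction and mRNA are both highest at 9 d, while the GLIS3 mRNA is highest at 3 d (188 to 239 FPKM) with its junction between 569 and 846 SRPBM.

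The other abundant junctions did not pass the test on any day. BNC2 had 1902, 1714 and 1503 SRPBM at 0 d, 1966, 2157 and 2535 on day 3, 1951, 1376 and 2196 on day 6 and 3173, 3489 and 3334 at 9 d. Its 9 d libraries lay above all others, but relative to all back-spliced reads the log2 fold change was 0.69 (edgeR with Benjamini-Hochberg adjustment, adjusted p = 0.599, higher in 3 of 3 libraries). The HIPK3 junction had 339 ± 84.9, 248 ± 53.2, 297 ± 129 and 508 ± 89.5 SRPBM (SD, n = 3), with log2 fold changes of −0.51, −0.15 and 0.31 that did not pass. The junction of the insulin receptor gene INSR had 211 ± 60.4, 355 ± 111, 344 ± 59.8 and 295 ± 88.0 SRPBM.

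SAMD4A, which encodes an RNA-binding repressor of translation, had 47.2, 136 and 169 SRPBM at 0 d and 16.7, 27.3 and 38.8 at 3 d. All 3 d libraries lay below all 0 d libraries, and the log2 fold change of −2.04 had an adjusted p of 0.504 in edgeR with Benjamini-Hochberg adjustment. NFIX was at 153 ± 61.8 SRPBM at 0 d and 67.2 ± 51.4 at 9 d, with overlapping libraries (log2 −1.46, edgeR adjusted p = 0.599).

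Hosts of well-known circles were looked up as a list of 9 genes. Single-exon junctions were present for 6 of them, with 427 reads in 6 junctions, all with both ends at exon edges: HIPK3 with 264 reads, NFIX with 95, the forkhead factor FOXO3 with 45, the sodium and calcium exchanger SLC8A1 with 18, HIPK2 with 4 and MBNL1 with 1. None was listed for ZNF609, CDYL or PVT1, and of these CDYL mRNA was at 2.10 FPKM. Of the 4 junctions with enough reads for edgeR 0 were called, with NFIX at 9 d and SLC8A1 at 3 and 9 d under an unadjusted p of 0.05. SLC8A1 had 0 reads at 0 d and between 2 and 9 on the later days. DESeq2 also called 0.

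Among 42 genes of fat and lipid metabolism, 7 were hosts, with 8 junctions and 300 reads. They were INSR (230 reads), IGF1R (50), the glucocorticoid receptor NR3C1 (6), the zinc finger factor ZBTB16 (5 in its larger junction), LRP1 (3), OSBPL10 (2) and CEBPD (2). Of the 4 junctions tested, that of IGF1R was called at 9 d, where edgeR called 0.398% of all 2767 junctions tested. Of the 7 host mRNAs limma called 2 higher and 1 lower at 3 d, and 1 higher at 6 d and at 9 d; the shares of all mRNAs called are given below. ZBTB16 went from 0.343 ± 0.162 FPKM at 0 d to 282 ± 105, 80.2 ± 15.3 and 12.3 ± 2.92 (limma log2 9.29, 7.54 and 4.84, adjusted p = 8.7e-09, 1.34e-07 and 3.26e-06 with Benjamini-Hochberg adjustment, higher in 3 of 3 libraries each; log2 7.64 to 9.65, 5.91 to 7.90 and 3.30 to 5.19 over the 18 alternatives), and its junction had its 5 reads in 6 d replicates 1 and 2. CEBPD, an early adipogenic transcription factor, rose at 3 d from 1096 ± 80.6 to 2440 ± 6.52 FPKM (limma log2 1.16, adjusted p = 4.42e-07, higher in 3 of 3 libraries). At 6 d its log2 fold change of 0.995 (limma adjusted p = 3.56e-06) did not pass the threshold of 1, and it was called after rescaling (1.16), without 0 d replicate 3 (1.055) and without 6 d replicate 1 (1.02). OSBPL10, which encodes an oxysterol-binding protein relative, fell at 3 d from 4.61 ± 1.24 to 1.17 ± 0.185 FPKM (limma log2 −1.86, Benjamini-Hochberg adjusted p = 6.68e-05, lower in 3 of 3 libraries).

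Of 46 chromatin and transcription genes 11 were hosts, with 12 junctions and 61 reads, and 11 of the junctions had both ends at exon edges. The chromatin remodeller gene CHD9 led with 32 reads in 11 of the 12 libraries, followed by the acetyltransferase gene CREBBP with 9 and MLLT10 with 5. By edgeR 0 of the 3 junctions tested were called, 0 passed an unadjusted p of 0.05, and DESeq2 also called 0.

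Of 31 matrix and adhesion genes 13 were hosts, with 27 junctions and 205 reads, and 11 of the 27 had both ends at exon edges. LAMA2 led with 107 reads; SPARC was not in the list. Of 12 host mRNAs tested, limma called 2 higher and 5 lower at 3 d, 3 higher at 6 d and 2 higher at 9 d. Of all mRNAs, 8.06% were called higher and 15.2% lower at 3 d, 3.39% higher at 6 d and 3.41% higher at 9 d. FN1 was also called higher at 9 d after rescaling (limma log2 1.08, against 0.87 without it). The LAMA2 junction had 116 ± 35.3, 226 ± 64.7, 76.2 ± 86.0 and 119 ± 71.1 SRPBM on the 4 days (SD, n = 3). Its mRNA rose at 3 d, from 235 ± 14.4 to 1047 ± 33.4 FPKM (limma log2 2.15, Benjamini-Hochberg adjusted p = 1.89e-09, higher in 3 of 3 libraries), and was at 208 and 199 FPKM at 6 and 9 d.

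The mRNA of the matrix glycoprotein gene TNC fell from 3957 ± 40.1 FPKM at 0 d to 60.1 ± 5.30 at 3 d (limma log2 −6.04, Benjamini-Hochberg adjusted p = 9.2e-12, lower in 3 of 3 libraries) and was at 5473 ± 297 and 4856 ± 305 at 6 and 9 d. The larger TNC junction had 23 reads, with 3, 0, 8 and 12 of them on the 4 days. Of the 6 junctions of the list that were tested, edgeR called 0, with that of COL3A1 under an unadjusted p of 0.05 at 3 and 6 d, and DESeq2 also called 0. All 0 d reads of this COL3A1 junction were in replicate 1, so that the libraries of 0, 3 and 6 d overlap.

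To relate circles to their hosts, the ratio of each junction's reads, scaled to all back-spliced reads, to the FPKM of its host was tested by limma for 167 junctions with at least 60 reads, 19 of them single-exon. GLIS3 gave the single call among these. Its junction had 597, 611 and 576 SRPBM at 0 d and 650, 846 and 569 at 3 d, and 595 ± 17.6, 688 ± 143, 827 ± 56.5 and 726 ± 150 on the 4 days (SD, n = 3). The GLIS3 mRNA was at 29.1, 31.7 and 24.4 FPKM before induction, at 206, 188 and 239 on day 3, and back at 33.8 ± 2.81 and 31.8 ± 2.05 at 6 and 9 d. The mRNA rose in all libraries at 3 d while the junction's libraries overlapped, so that the ratio fell by 2.73 on the log2 scale (SE 0.337, limma adjusted p = 0.000369 with Benjamini-Hochberg adjustment, 3 of 3 libraries), with adjusted p between 0.000533 and 0.00295 when leaving out a library. The mRNA itself had a log2 fold change of 2.89 (limma adjusted p = 1.99e-08), called in all 18 alternative fits.

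Called single-exon ratios thus numbered 1, 0 and 0 on days 3, 6 and 9, where limma called 5.99%, 0% and 0.599% of all 167. Of the 10 ratios called at 3 d, 9 were higher and 1, that of GLIS3, was lower. At an unadjusted p under 0.05, 2, 3 and 1 passed, against 40, 23 and 22 of all 167; no other tool was run on ratios. The medians of the 19 were −0.19, 0.28 and −0.29 on the log2 scale, against 0.48, 0.17 and 0.14 for all ratios. INSR had 1.24 and SHOC2 1.09 at 6 d, each with an adjusted p of 0.225 in limma with Benjamini-Hochberg adjustment. For TIMP1, with 0 reads in 2 of the 3 libraries of 0 d, the ratio rests on the pseudocount of 0.5 and its size is not a measure of change. It was 5.82 ± 2.43 at 6 d (SE, limma adjusted p = 0.310) and 5.44 at 9 d (limma adjusted p = 0.360), and without 0 d replicate 2 the 6 d ratio was called.

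**Figure D5:**
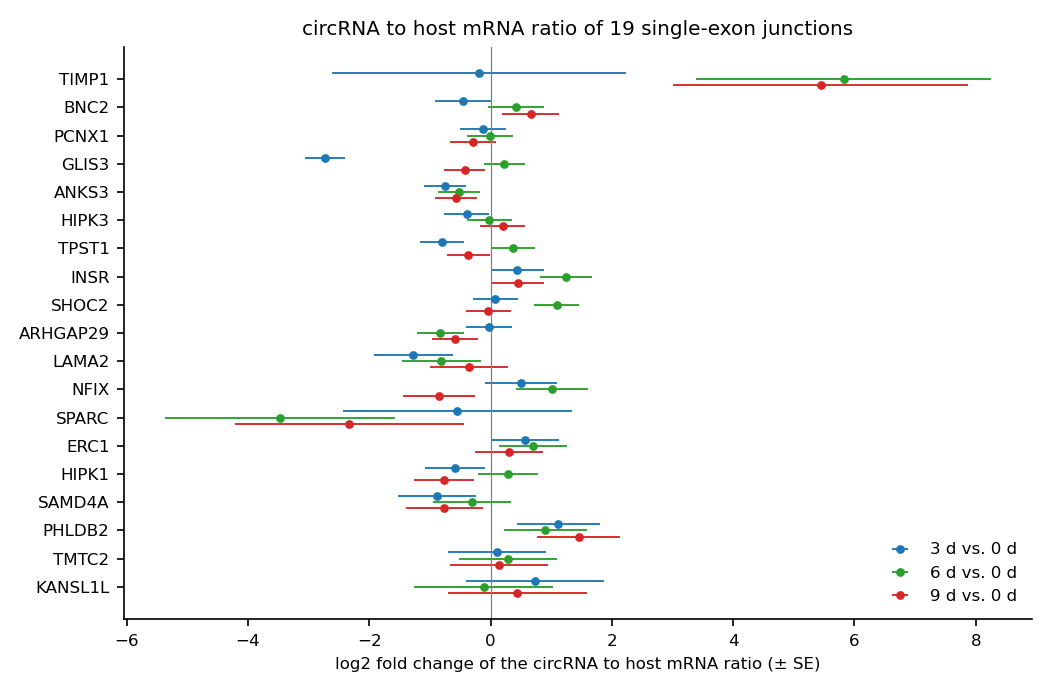
Log2 fold change of the circRNA to host mRNA ratio against 0 d for 19 single-exon junctions with at least 60 reads (points, limma estimates; bars, ± SE), coloured by day. GLIS3 at 3 d lies at −2.73 with a short bar, while TIMP1 and SPARC have the longest bars.

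The host mRNAs were tested by limma on log2(FPKM + 0.1) over 15401 mRNAs with a mean of at least 0.1 FPKM, of which 516 were hosts of single-exon junctions. FPKM was found for 522 of the 567 hosts, and the other 45, among them LPP and MYO9A, were not analysed. At 3 d 164 hosts (31.8%) were called, 49 higher and 115 lower, against 23.3%, 8.06% and 15.2% of all mRNAs. At 6 d 70 (13.6%) were called, 32 higher and 38 lower, against 11.4%, 3.39% and 7.97%. At 9 d 61 (11.8%) were called, 23 higher and 38 lower, against 10.9%, 3.41% and 7.47%. With a pseudocount of 1 in place of 0.1, limma called 141, 56 and 46 hosts on the 3 days, and 2184, 967 and 888 of all mRNAs in place of 3585, 1749 and 1675. Median log2 fold changes of hosts were −0.23, −0.14 and −0.19, and those of all mRNAs −0.06, −0.15 and −0.19.

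Rescaling each library by its median ratio moved the median of all mRNAs by 0.0802, 0.154 and 0.186 on the log2 scale at 3, 6 and 9 d. It gave 53 higher and 104 lower hosts at 3 d, 39 and 26 of them at 6 d, and 32 and 20 of them at 9 d, so that at 6 and 9 d more hosts were lower before and more were higher after rescaling. Of all 15401 mRNAs, 1400 were higher and 2121 lower at 3 d after rescaling, 643 and 948 of them at 6 d, and 684 and 790 of them at 9 d. The medians of hosts were then −0.14, 0.02 and 0.01, and of all mRNAs 0.02, 0.00 and −0.01.

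Among the hosts of the 20 junctions with the most reads, 19 had a tested mRNA. GLIS3 and LAMA2 rose at 3 d and TIMP1 at 9 d, as described. The mRNA of NFIX was at 95.6 ± 0.405, 62.7 ± 3.30, 45.0 ± 0.675 and 48.1 ± 12.1 FPKM (SD, n = 3) and was called lower at 6 d (limma log2 −1.09, Benjamini-Hochberg adjusted p = 0.000154, 3 of 3 libraries) and 9 d (log2 −1.02, adjusted p = 0.000264). After rescaling it was not called at either, with −0.92 and −0.82, and the 9 d call was lost without 9 d replicate 2 (log2 −0.92) or 9 d replicate 3 (log2 −0.92). PHLDB2, whose product anchors microtubules at the cell cortex, was at 132 ± 47.4, 55.9 ± 20.7, 57.2 ± 41.0 and 31.5 ± 1.12 FPKM. It was lower at 9 d in all 18 alternative fits (limma log2 −2.00, Benjamini-Hochberg adjusted p = 0.00631, 3 of 3 libraries).

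The 3 d and 6 d calls of PHLDB2 were at limma log2 −1.24 and −1.37 (adjusted p = 0.042 and 0.0405). In the fits that lost them, log2 was between −1.24 and −0.979 at 3 d and between −1.37 and −1.02 at 6 d. In limma with Benjamini-Hochberg adjustment the 3 d call was lost without 0 d replicate 1 (adjusted p = 0.139), 0 d replicate 3 (0.088), 3 d replicate 1 (0.138), 3 d replicate 2 (0.0892) or any 9 d library (0.0561 to 0.0566). At 6 d it was lost without 0 d replicate 1 (limma adjusted p = 0.135), 0 d replicate 3 (0.0871), 3 d replicate 2 (0.0549), 6 d replicate 2 (0.140), 6 d replicate 3 (0.127) or any 9 d library (0.0556 to 0.0559), and with the replicate block (0.05005). After rescaling limma called neither (Benjamini-Hochberg adjusted p = 0.0575 and 0.0729), and without the filter on low values it called neither (0.1104 and 0.110).

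Genes that act on back-splicing were given by a list of 35 genes, of which 31 were in the mRNA table and 29 were tested in the same limma fit. By role, 10 of the tested genes promote back-splicing, 7 act against it, 5 serve export or modification of circles and 7 their decay. At 3 d 3 of the 29 were called, all lower, and at 6 d and 9 d limma called 0, with 12, 14 and 17 at an unadjusted p under 0.05 on the 3 days, against 8818, 6644 and 6980 of all 15401 mRNAs; no other tool was run on FPKM. The share of all mRNAs called is given above.

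QKI, which promotes back-splicing by binding flanking introns, was at 347, 338 and 290.2 FPKM at 0 d and 59.25, 81.9 and 144 at 3 d. All 3 d libraries lay below all 0 d libraries (limma log2 −1.87 ± 0.467 SE, Benjamini-Hochberg adjusted p = 0.00688, called in all 18 alternative fits). Its means at 6 and 9 d, 201 ± 105 and 209 ± 53.5 FPKM, were not called. ADARB1, an editing enzyme of double-stranded RNA, was at 64.5, 34.4 and 62.5 FPKM at 0 d and 10.9, 25.4 and 10.3 at 3 d, again without overlap (limma log2 −1.86, adjusted p = 0.00353, called in all 18 alternative fits).

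MBNL2 was at 513 ± 10.0 FPKM at 0 d and 999.9 at 6 d (limma log2 0.96, adjusted p = 1.03e-06, 3 of 3 libraries) and passed the fold change threshold after rescaling, with 1.13. YTHDC1, a reader of methylated adenosine, was called lower at 9 d when 0 d replicate 3 was left out (log2 −1.31 against −0.96 with it). Whether any of these levels bears on the single-exon share was not tested.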

How the data were processed

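Of the 4 deposited tables, those of circRNAs and mRNAs were used for all 12 libraries, and those of lncRNAs and miRNAs were not. The deposited circRNA table gives for each junction and library the count of back-spliced reads that the authors obtained. It also gives a signal, SRPBM, which the authors computed by scaling these counts to mapped reads. The deposited mRNA table gives FPKM as the authors estimated it. The submitters' notes name HISAT2 2.0, StringTie 1.3.0 and Bowtie 0.12.2, while the study methods name CIRCExplorer2, CIRI and tophat-fusion for circRNAs. Which of them made the deposited counts is not stated in the files, and the reads were not mapped again.

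Junctions with at least 5 counts were tested by edgeR 4.0.16 (quasi-likelihood), with DESeq2 1.42.0 as an alternative, and log2(FPKM + 0.1) of mRNAs with a mean of at least 0.1 FPKM and ratios of junctions with at least 60 counts by limma 3.58.1 in R 4.3.3, with Benjamini-Hochberg adjustment. Each day was compared with 0 d. Daily summaries were tested by exact permutation with NumPy 2.4.6 and pandas 2.3.3 in Python 3.11.15, and figures drawn with Matplotlib 3.10.9. The code was tested on simulated data.

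Genes are named if their junction is among the 20 with the most reads, was called, or has a host in a list of well-known circle hosts, fat and lipid, chromatin, or matrix genes, or of back-splicing factors. The members and lists were chosen with earlier results of these data known. Alternatives changed filters, pseudocounts, library sizes, rescaling, tool, replicate block and the libraries used. The alternative with both ends at exon edges was chosen after the data had been seen.

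The depth of 5358 to 10729 back-spliced reads per library leaves most junctions with few counts. The study methods call the replicates biological, but the labels do not say whether they are separate cultures or animals. Sequencing was of bulk RNA. Without the genome, junction sequences could not be read.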

Additional observations from a re-analysis of the deposited data

Results flagged for a closer look

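The results below were picked out because every library of some days lay above every 0 d library while every library of other days lay below. The value given is the largest difference between daily means. These differences in both directions were not tested as such, and groups of 3 libraries were not tested for outliers. The share of all mRNAs with such a pattern was not counted, so that the pattern cannot be called particular to these hosts.

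Among hosts of the most abundant junctions, the TIMP1 mRNA differed by 1472 FPKM between daily means, with 6 d and 9 d above and 3 d below 0 d. For ARHGAP29 the difference was 3.03 FPKM with the same directions. TPST1 differed by 81.8 FPKM and LAMA2 by 847 FPKM, each with 3 d above and the later days below.

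Among other hosts, NR3C1 differed by 80.8 FPKM and FBN1 by 2218 FPKM, each with 9 d above and the earlier days below. The difference was 5413 FPKM for TNC, 13151 for THBS1, 9544 for COL1A2 and 4520.02 for FN1, each with 3 d below and later days above. COL1A1 differed by 2453 FPKM, with 9 d above and 3 d below. COL3A1 differed by 74524 FPKM, with 6 d below and the other days above. NID1 differed by 235 FPKM, with 3 d above and later days below.

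The single-exon share of exonic back-spliced reads differed by 7.865 percentage points, with all 9 d libraries above and all 3 d libraries below those of 0 d. Without the TIMP1 junction all 9 d libraries (10.3%, 10.7% and 10.7%) lay below all 0 d libraries (11.2%, 11.7% and 11.8%). The spread over the 4 days was tested in the report, and which day differs from which was not.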

How the results depend on the processing

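The single-exon share was 4.85 percentage points higher at 9 d than at 0 d, and ranged from 4.04 to 6.13 when leaving out a library. The direction was reversed without the most abundant junction (−0.967), without the 10 most abundant (−1.19) and with both ends at exon edges (−0.625). For summed SRPBM the difference of 11398 ranged from 10600.3 to 12572 when leaving out a library.

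Detected junctions at equal depth differed by −7.29 between 9 d and 0 d, by −7.71 at a depth of 5000 reads and by −9.10 with both ends at exon edges. Leaving out a library gave −12.3 (without 9 d replicate 2) to −1.77 (without 9 d replicate 1).

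At 3 d the single-exon junction called became 0 with DESeq2, with library sizes from the reads behind SRPBM, with no filter on low counts, with at least 20 counts, with only the 6 libraries compared and with both ends at exon edges. With unadjusted p 14 passed. Leaving out a library gave 0 to 1.

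At 6 d, of the 2 called, 0 were called with DESeq2, 1 with no filter on low counts, 0 with at least 20 counts and 0 with both ends at exon edges, and 12 passed with unadjusted p. Leaving out a library gave 1 to 3, with VCL added without 0 d replicate 2.

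At 9 d, of the 2 called, 0 were called with DESeq2, 0 with at least 20 counts and 1 with both ends at exon edges, and 16 passed with unadjusted p. Leaving out a library gave 2 to 3.

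Called ratios ranged from 1 to 1 at 3 d, from 0 to 1 at 6 d (1 without 0 d replicate 2) and from 0 to 0 at 9 d when leaving out a library. Called host mRNAs ranged from 158 to 171, 65 to 72 and 53 to 67 on the 3 days. Called back-splicing factors ranged from 2 to 3, from 0 to 0 and from 0 to 1 on days 3, 6 and 9 (1 at 9 d without 0 d replicate 3), and 1 was called at 6 d after rescaling by the median ratio.

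With a replicate block 0 single-exon junctions were called at 3 d. Replicates with the same number on different days correlated between −0.0193 and 0.0432 for circRNA junctions and between −0.0984 and 0.111 for mRNAs after removal of daily means, and 5 of 12 libraries in each table correlated best with their own number.

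Counts scaled by a table of mapped reads in place of SRPBM were not run for the summed level, since such a table is given in the paper's supplements, whose values were not used; library sizes from the reads behind SRPBM were used in the junction tests. The cause of any of these shifts was not tested.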
